A study of Mus musculus with 6 samples.

Results

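The genes described here encode, with 1 exception, proteins of the mitochondrial ribosome. They were chosen by symbol, as every protein-coding mouse gene named Mrpl or Mrps followed by digits and at most 1 letter, which gave 78 genes (49 Mrpl and 29 Mrps) among 21887. The symbol rule also takes in Mrps36, known as a subunit of the oxoglutarate dehydrogenase complex. An accessible region was assigned to a gene when its midpoint lay within 2.5 kb of either annotated limit of that gene, and by this rule the 78 genes had 108 of the 69689 regions in the table. Cluster and width of these regions were not used in choosing them.

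Accessibility was mapped by ACC-seq, in which Tn5 transposase cuts open DNA and adds sequencing adapters, in R1, a wild-type mouse embryonic stem cell line. The study set 3 conditions of 2 libraries side by side: Fresh cells, Fix cells (1% formaldehyde for 10 min) and Fix_1,6-Hex cells, which met 10% 1,6-hexanediol, an alcohol that dissolves many condensates, for 30 s before the same fixation and again while being fixed. Cells of all 3 conditions were grown on feeder fibroblasts, which were then removed by replating, with serum, LIF and 2 inhibitors, and tagmentation ran for 30 min at 37 °C in Fresh nuclei and at 55 °C in the other groups. The deposited table joins all libraries: each region has a position and 1 of 9 cluster names, without a value per library, so no contrast of treatments, no depth and no replicate error can be given, and what the clusters stand for is not stated in the sources used here. Regions lay near 6 of 6 stem cell marker genes and near 4 of 6 fibroblast genes, with none at Col3a1 and Prrx1, where 69.7% of protein-coding genes outside the set described here had one.

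Mitochondria make their own ribosomes, which translate the few proteins encoded by mitochondrial DNA. All of these proteins are parts of the respiratory chain or of ATP synthase. The ribosomal RNAs come from mitochondrial DNA, while all ribosomal proteins are encoded in the nucleus, made in the cytosol and imported. Some have homologues in the bacterial ribosome and others exist only in mitochondria. Their promoters, like those of other nuclear genes for mitochondria, are known for sites of ETS factors such as GABP, of NRF1 and of YY1.

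RefSeq promoter windows (GRCm38.p6, 250 bases before to 50 after the start) were at hand for 69 of the 78 genes. The other 9 are Mrpl4, Mrpl13, Mrpl15, Mrpl19, Mrpl38, Mrpl54, Mrps28, Mrps34 and Mrps35. Each window was searched on both strands for 8 motifs: ETS (CCGGAA), NRF1 (GCATGCG), YY1 (AAGATGGC), the SP/KLF box (GGGCGGG), the E-box (CACGTG), the CCAAT box (CCAAT), CRE (TGACGTCA) and the TATA box (TATAAA). Shown here are the 4 promoters with the most kinds of motif, 4 each, because they let most of the motifs be seen in place; having been chosen for their motifs, they are not typical of the set. Each window lay whole inside an accessible region. They belong to Mrpl2, a core protein of the large subunit (chr17:46645971-46646270, plus strand), Mrpl32, also of the large subunit (chr13:14612988-14613287, minus strand), Mrpl37, a protein of the large subunit found only in mitochondria (chr4:107066817-107067116, minus strand), and Mrps12, part of the decoding centre of the small subunit (chr7:28741772-28742071, minus strand). Sequences run 5′ to 3′ along the gene, and capitals mark motif matches on either strand.
Mrpl2: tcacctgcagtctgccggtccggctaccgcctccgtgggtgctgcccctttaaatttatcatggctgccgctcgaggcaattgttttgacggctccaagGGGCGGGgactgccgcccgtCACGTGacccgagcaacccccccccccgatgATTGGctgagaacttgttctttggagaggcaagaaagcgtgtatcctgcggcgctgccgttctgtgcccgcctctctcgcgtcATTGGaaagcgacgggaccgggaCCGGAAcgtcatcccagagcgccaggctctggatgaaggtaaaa
Mrpl32: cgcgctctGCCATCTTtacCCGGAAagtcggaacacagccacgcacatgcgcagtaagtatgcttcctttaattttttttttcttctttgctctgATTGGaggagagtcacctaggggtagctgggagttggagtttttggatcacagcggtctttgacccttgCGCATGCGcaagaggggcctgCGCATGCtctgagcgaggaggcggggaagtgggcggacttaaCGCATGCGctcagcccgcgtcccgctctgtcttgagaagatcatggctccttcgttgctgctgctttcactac
Mrpl37: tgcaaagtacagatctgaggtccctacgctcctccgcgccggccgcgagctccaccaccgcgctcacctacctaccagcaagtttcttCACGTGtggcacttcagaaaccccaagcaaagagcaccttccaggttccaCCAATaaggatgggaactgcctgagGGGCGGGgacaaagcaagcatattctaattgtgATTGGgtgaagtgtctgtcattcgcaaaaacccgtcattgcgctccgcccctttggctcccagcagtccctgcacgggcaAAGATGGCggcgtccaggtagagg
Mrps12: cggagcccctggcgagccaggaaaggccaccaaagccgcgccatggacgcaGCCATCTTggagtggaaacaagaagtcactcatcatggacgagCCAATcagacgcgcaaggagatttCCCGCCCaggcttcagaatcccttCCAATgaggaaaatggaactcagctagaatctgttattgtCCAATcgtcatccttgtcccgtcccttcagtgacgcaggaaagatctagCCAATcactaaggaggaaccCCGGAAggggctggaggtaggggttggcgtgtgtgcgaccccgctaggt

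The 4 promoters carried different sets. Mrpl2 had ETS, SP/KLF, E-box and CCAAT matches and lay in a cluster 3 region of 1436 bp. Mrpl32 had ETS, NRF1, YY1 and CCAAT matches within a cluster 4 region of 835 bp. Mrpl37, in a cluster 4 region of 1558 bp, had YY1, SP/KLF, E-box and CCAAT matches and no match to the ETS letters. Mrps12 had ETS, YY1, SP/KLF and CCAAT matches in a cluster 3 region of 1582 bp.

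Every mitochondrial ribosomal protein gene had an accessible region at its limits. The count was 78 of 78 (100%, exact Clopper-Pearson 95% interval 95.4 to 100), beside 15196 of the 21809 other protein-coding genes (69.7%). These intervals treat genes as separate draws and cover counting error only. With regions credited only to the nearest gene, 79.5% of the members and 63.7% of other genes kept one, and within 500 bp the shares were 82.1% and 49.2%. A single region lay at 51 members (65.4%), 2 regions at 23 (29.5%) and 3 regions at 4 (5.13%), close to the 65.8%, 28.5% and 5.17% of other genes with a region. The members thus differed from other genes in how many had a region at all, and little in the number of regions per gene. Such coverage was not particular to them. A region lay near 80 of 81 cytosolic ribosomal protein genes, and near 24 of 24 genes for mitoribosome assembly. The counts were 11 of 11 for mitochondrial translation factors and 16 of 17 for mitochondrial aminoacyl-tRNA synthetases. The 4 genes with 3 regions were Mrpl22, Mrpl36, Mrpl45 and Mrps2.

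Nearly all of these genes had their start in a region. Of the 69 members with a RefSeq start, 66 had at least 1 inside a region (95.7%, interval 87.8 to 99.1), compared with 9916 of 17423 other genes (56.9%), or 81.9% of those other genes that had a region near a limit. The annotated 5′ limit lay in a region in 60 of 69 members (87%) and the 3′ limit in 2 (2.9%), Mrpl2 and Mrpl58, where the shares of other genes were 54.3% and 4.24%. In 9 members no region covered the outermost 5′ limit, and in 8 of them (Mrpl1, Mrpl18, Mrpl22, Mrpl23, Mrpl24, Mrpl45, Mrps2 and Mrps31) a region further inside covered a RefSeq start of the gene. The remaining gene, Mrpl20, had a cluster 8 region of 733 bp that began 437 bp from its start. The other 2 members without a covered start were Mrps10, with a gap of 43 bp between the region and the RefSeq start, and Mrps23, whose RefSeq start lay 10282 bp from its gene limit.

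**Figure D1:**
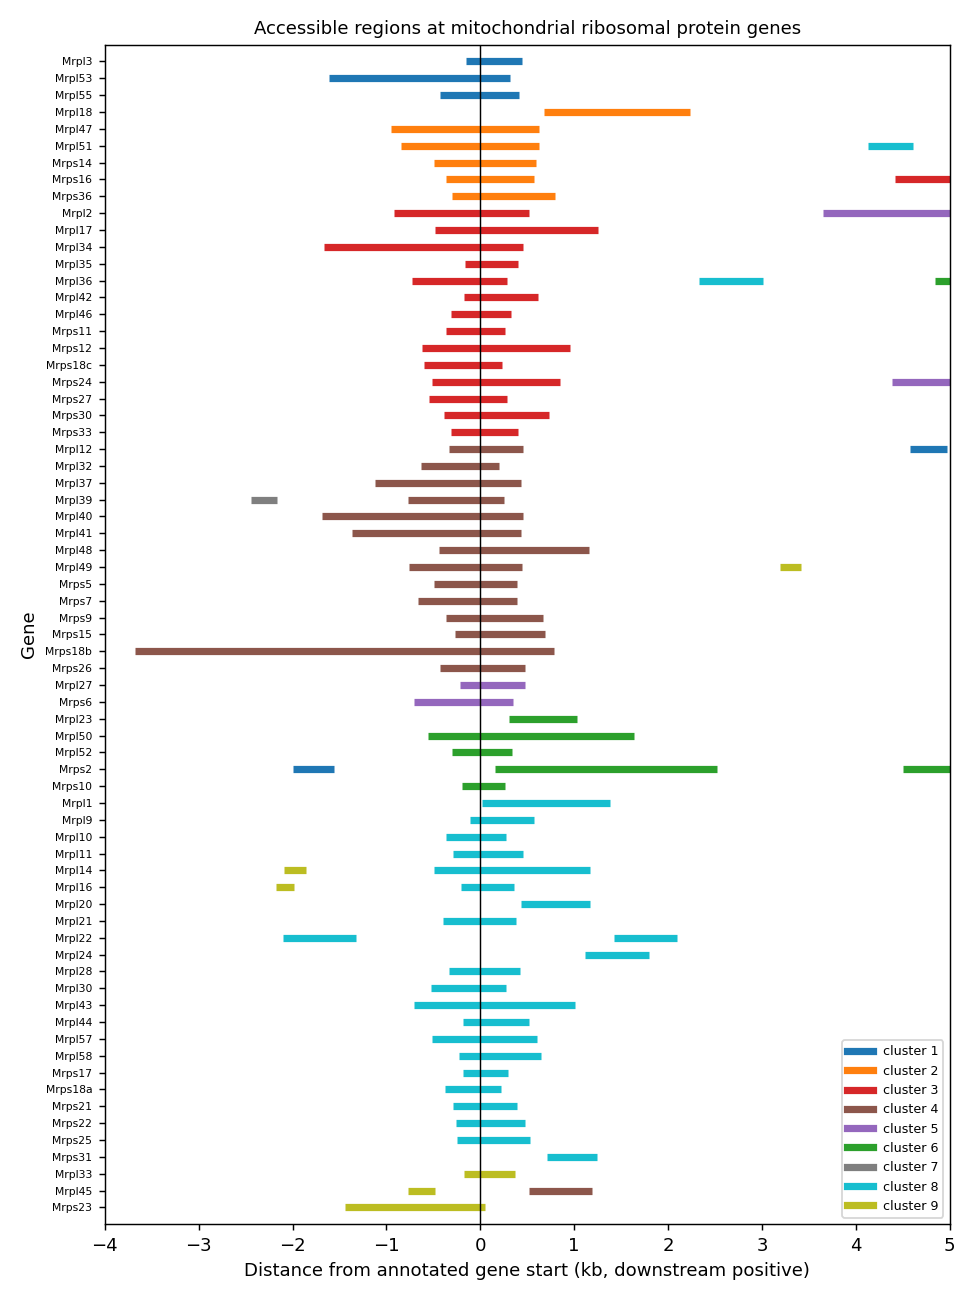
Accessible regions at the 69 mitochondrial ribosomal protein genes with known strand, drawn to scale as horizontal bars against distance from the annotated gene start (kb, downstream positive), 1 gene per row, coloured by cluster and sorted by the cluster of the region nearest to the start. In 60 of the 69 rows a bar crosses the start, and regions beyond the plotted range are not drawn.

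The most frequent single cluster at these genes was cluster 8, and clusters 2, 3 and 4 together marked more than it did. A cluster 8 region lay at 28 of 78 members (35.9%, interval 25.3 to 47.6; other genes 25.5%). Cluster 3 was found at 18 (23.1%, 14.3 to 34; other genes 14.2%) and cluster 4 at 17 (21.8%, 13.2 to 32.6; other genes 13.6%). Without regions near a further gene, the cluster 4 shares were 13% and 10.6%. Cluster 2 was found at 8 (10.3%, 4.53 to 19.2), near the 9.22% of other genes. Taken as a group, clusters 2, 3 and 4 marked 41 of 78 members (52.6%, 40.9 to 64), and 36% of other genes. Clusters 2, 3 and 4 were joined with earlier results of these data known, so their joint share is a description only. Either these clusters or cluster 8 marked 63 members (80.8%), against 59.1% of other genes. Both were found at 6 members, a count that was not made for other genes.

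Clusters 1 and 7 were less frequent here than at other genes. Cluster 1 lay at 9 members (11.5%, 5.41 to 20.8), with 27.3% among other genes, and cluster 7 at 2 members (2.56%, 0.312 to 8.96), with 10.5%. For cluster 1 the share was 4.69% within 500 bp and 28.2% within 5 kb, below the shares of other genes (18.8% and 35.4%) in both windows. Cluster 9 lay at 11 members (14.1%, 7.26 to 23.8; other genes 17.9%), cluster 6 at 8 (10.3%, 4.53 to 19.2; other genes 10.2%) and cluster 5 at 4 (5.13%, 1.41 to 12.6; other genes 5.51%). The share of cluster 7 was 0% within 500 bp and 10.3% within 5 kb, and that of cluster 9 was 3.12% and 24.4%, each below other genes. The interval lay above the share of other genes for cluster 3, by a narrow margin, and for clusters 2, 3 and 4 together. It lay below that share for clusters 1 and 7. For the remaining clusters, 4 and 8 included, it held the share of other genes. These shares do not separate cluster from start coverage, which was higher in members (95.7%) than in other genes with a region (81.9%). Among regions that contain a start, the shares lay closer together. They were 51.5% and 41.4% for clusters 2, 3 or 4, and 19.7% and 15.8% for cluster 3. No interval was computed for that setting, and no test was made of these differences.

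**Figure D2:**
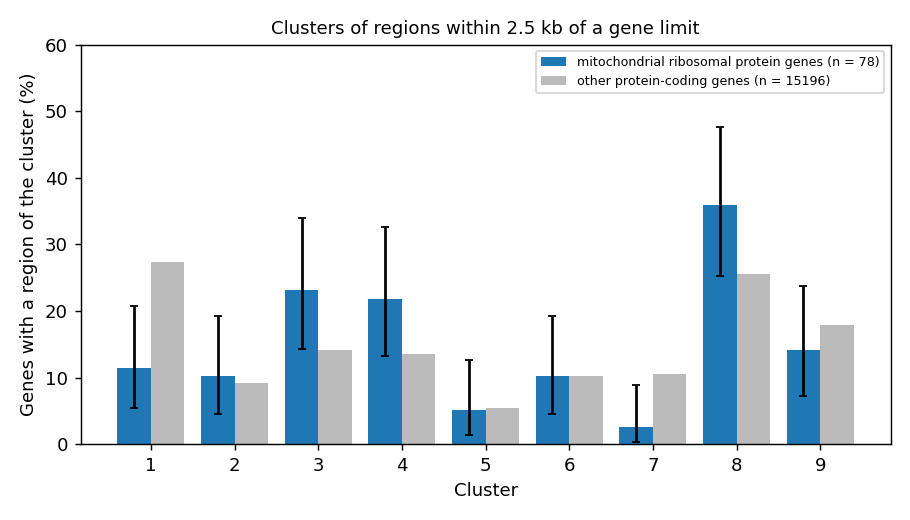
Share of genes (%) with at least 1 region of each of the 9 clusters within 2.5 kb of a gene limit, for 78 mitochondrial ribosomal protein genes (blue, bars with exact 95% intervals) and 15196 other genes with a region (grey). Blue exceeds grey for clusters 3, 4 and 8 and stays under it for clusters 1 and 7; a gene with regions of several clusters counts in each.

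The members were next divided by their place in the ribosome. Among 30 genes for large subunit proteins with bacterial relatives, 15 had a cluster 8 region (50%, other genes 25.5%) and 10 a region of cluster 2, 3 or 4 (33.3%, other genes 36%). The median width of their 44 regions was 730 bp (200 to 2818). Mrpl55, which structural nomenclature places among the proteins specific to mitochondria, was counted here, and its region of 844 bp is of cluster 1. Mrpl10 and Mrpl11, proteins at the base of the stalk that recruits translation factors, had cluster 8 regions of 633 and 750 bp at their starts. Mrpl12, which forms the stalk itself, had a cluster 4 region of 785 bp there. All 3 stalk genes had in addition a cluster 1 region beyond the 3′ limit, of 341 bp at Mrpl10, 417 bp at Mrpl11 and 399 bp at Mrpl12. Those of Mrpl10 and Mrpl12 also lay near another gene, Osbpl7 and Slc25a10. The stalk was not a group set in advance, and Mrpl18, outside it, had a cluster 1 region past its end too. Cluster 1 regions beyond the 3′ limit were not counted for other genes. Mrpl1 and Mrpl9, the first members of cluster 8 in order of name, had regions of 1371 and 679 bp. Mrpl3, a protein of the subunit core, had a single region of 598 bp in cluster 1.

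Others of this group were in cluster 3 or carried clusters seen rarely at these genes. At Mrpl2 (chr17:46646172-46650132) cluster 3 covered the start, as given above, and the far end lay in a region of cluster 5, 1374 bp wide, also near Cul7. Mrpl15 and Mrpl17 had cluster 3 regions of 815 and 1736 bp. The single region of Mrpl27 (chr11:94653770-94661932) was of cluster 5 and 699 bp wide. Mrpl4 (chr9:21001252-21008839) carried cluster 6 at its lower limit (2818 bp) and cluster 9 at its upper limit (419 bp). Mrpl23 had a cluster 6 region of 727 bp. Mrpl14 and Mrpl16 had cluster 8 at the start, 1663 and 558 bp wide, and a small region of cluster 9, of 240 and 200 bp, centred 1973.5 and 2080.5 bp upstream. Mrpl18 combined cluster 2 over its start (1564 bp) with cluster 1 past its end (886 bp). Mrpl22 had 2 regions of cluster 8, upstream (774 bp) and at its start (664 bp), and cluster 9 past its end (312 bp). Mrpl36 carried clusters 3, 8 and 6 in 5′ to 3′ order, with widths of 1011, 685 and 350 bp.

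Of 20 genes for large subunit proteins classed as specific to the mitochondrial ribosome, 13 had a region of cluster 2, 3 or 4 (65%, other genes 36%). A cluster 8 region lay at 6 of them (30%, near the 25.5% of other genes). The median width of their 27 regions was 1123 bp (229 to 2193). Mrpl37 had a cluster 4 region of 1558 bp. Mrpl39 had a cluster 4 region of 1023 bp over the start and, 2303 bp upstream, 1 of the 2 cluster 7 regions, with a width of 275 bp. Mrpl51 was covered by cluster 2 at its start (1474 bp), with cluster 8 beyond its end (480 bp). Mrpl58, a peptidyl-tRNA hydrolase that rescues stalled ribosomes, was covered by cluster 8 at the start (876 bp) and by cluster 3 at the end (1995 bp). Mrpl45 had 3 regions, of 290, 669 and 326 bp, in clusters 9, 4 and 9. Mrps30, which despite its name sits in the large subunit, had a single cluster 3 region of 1123 bp.

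Among small subunit proteins with bacterial relatives, 12 of 17 genes (70.6%, other genes 36%) had a region of cluster 2, 3 or 4 and 3 (17.6%, other genes 25.5%) a cluster 8 region. The median width of their 25 regions was 959 bp (378 to 4462). Mrps5, with cluster 4 at its start (882 bp), had cluster 2 past its end (1375 bp). The only region of Mrps6 (chr16:92058336-92112227) was of cluster 5, 1062 bp wide and also near Slc5a3. Mrps11 had, besides the region at its start, the other cluster 7 region, 378 bp wide and near its end. Mrps24 had cluster 3 and cluster 5 regions of 1365 and 1520 bp, the latter past its far end. Mrps2 (chr2:28465951-28471177) had regions of 438, 2364 and 550 bp in clusters 1, 6 and 6, and none of clusters 2, 3, 4 or 8.

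Small subunit proteins specific to mitochondria were few. Of 9 genes, 5 had a region of cluster 2, 3 or 4 (55.6%, other genes 36%) and 3 a cluster 8 region (33.3%, other genes 25.5%), with widths from 533 to 2332 bp. Mrps34 (chr17:24895120-24896289) had the broadest of these, in cluster 1, which spanned the whole gene and lay near Eme2, Nme3 and Mapk8ip3 too. Mrps18a, a large subunit protein by position, showed cluster 8 at its start (599 bp) and cluster 9 at its end (389 bp). Mrps36, the gene outside the ribosome, had a cluster 2 region of 1103 bp. Differences between these structural groups are counts of genes and were not tested.

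Within the set, regions that did not hold a start were mostly narrower, and cluster 9 was the most frequent among them. There were 32 such gene-region pairs among the 69 genes, with a median width of 450.5 bp (876 bp for regions over a start), 22 of them within 2.5 kb of the 3′ limit. Some were wide, such as those past or at the ends of Mrpl58 (1995 bp) and Mrps24 (1520 bp). Cluster 9 accounted for 10, clusters 1 and 8 for 5 each, clusters 3 and 6 for 3 each, clusters 5 and 7 for 2 each and clusters 2 and 4 for 1 each. Regions without a start were not counted for other genes, so none of this can be called particular to the members. All regions in the table had a median width of 474 bp. Among the 65 regions that did hold a start, 22 were of cluster 8 (33.8%), 15 of cluster 4 (23.1%), 12 of cluster 3 (18.5%), 6 of cluster 2 (9.23%), 4 of cluster 6, 3 of cluster 1 (4.62%), 2 of cluster 5 and 1, at Mrpl33, of cluster 9. None was of cluster 7. In other genes 24.3% of 9090 such regions were of cluster 8, 14.2% of cluster 4, 15.3% of cluster 3, 9.78% of cluster 2 and 18.4% of cluster 1.

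Over their starts these genes had narrower regions than other genes. The median width of the 65 regions was 876 bp (quartiles 699 and 1436, lowest 478, highest 4462), and that of 9090 regions over the starts of other genes was 1186 bp (quartiles 844 and 1730). The quartiles overlap, so a large part of the members lay within the usual range. In cluster 8 the members' median was 721 bp and that of other genes 1077 bp, and 18 of 22 member regions were below the latter. In cluster 1, with 3 member regions, the medians were 844 and 1208 bp (2 of 3 below). In cluster 4 the medians were 1037 and 1341 bp (10 of 15 below), in cluster 3 they were 981 and 1272 bp (7 of 12 below) and in cluster 2 they were 1288.5 and 1259 bp (3 of 6 below). Member regions reached a median of 429 bp upstream and 449 bp downstream of the start, and those of other genes 479 and 628 bp. When all regions near either limit were taken, the medians were 832.5 bp for members and 931 bp for other genes. Within 5 kb the order turned, at 778 and 770 bp.

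The widest region belonged to Mrps18b (chr17:35910380-35916440): in cluster 4 and 4462 bp wide (chr17:35915657-35920118), it covered the start of Ppp1r10 as well. It was followed by the regions of Mrpl4 (2818 bp), Mrps2 (2364 bp), Mrps34 (2332 bp) and Mrpl50 (2193 bp), of clusters 6, 6, 1 and 6. The narrowest were the cluster 9 regions of Mrpl16 (200 bp), Mrpl49 (229 bp) and Mrpl14 (240 bp), the cluster 7 region of Mrpl39 (275 bp) and a cluster 9 region of Mrpl45 (290 bp). None of these 5 contained a start.

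**Figure D3:**
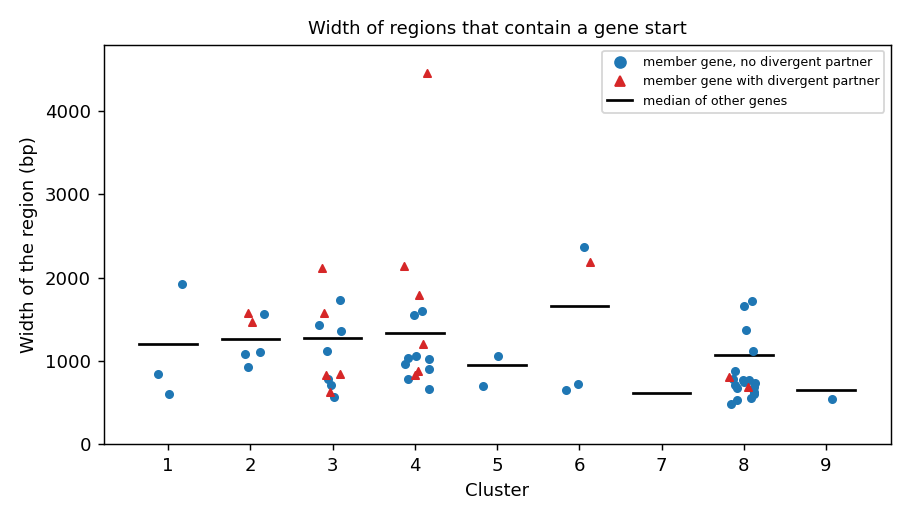
Width (bp) of each region that contains a RefSeq start of a mitochondrial ribosomal protein gene, by cluster, with triangles for genes that have a divergent partner within 1 kb and circles for the others; black lines are medians over other genes. Of 22 regions in cluster 8, 18 lie under the line, and the highest triangle is the 4462 bp region of Mrps18b.

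Many of these genes start back to back with another gene. A divergent partner, meaning a gene on the opposite strand whose annotated start lies at most 1 kb upstream, was found for 17 of 69 members (24.6%) and for 1117 of 12103 other genes with a region (9.23%). In 16 of the 17 cases 1 region held both starts. For Mrpl36 and Ndufs6, a complex I subunit gene, the starts were 21 bp apart by gene limits, but the RefSeq start of Mrpl36 lay in another region, of cluster 8 and 685 bp. Mrpl46 and Mrps11 (chromosome 7), the only pair of members within 2.5 kb of each other, begin 42 bp apart and share a cluster 3 region of 631 bp.

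The partners have various roles, and those named here were chosen after their values were seen. Mrps12 starts 136 bp from Sars2, the mitochondrial seryl-tRNA synthetase, and Mrpl47 starts 302 bp from Ndufb5, a complex I subunit, in a cluster 2 region of 1574 bp. Mrpl49 starts 192 bp from Fau, which encodes a protein of the cytosolic small subunit, in a cluster 4 region of 1210 bp. Mrpl32 starts 205 bp from Psma2, a proteasome subunit, and Mrpl40 113 bp from Hira, a histone chaperone, in a cluster 4 region of 2143 bp. The remaining partners were Mitd1, Abhd8, Pnpla7, Zfp189, Ncapd2, Zfp661, Ppp1r10, Helq and Ptcd2. Regions over starts with a partner had a median width of 1342 bp (631 to 4462, 16 regions), and those without had 788 bp (478 to 2364, 49 regions). In other genes the medians were 1361 bp (543 regions) and 1171 bp (8547 regions). The lower width of member regions was thus seen in genes without a divergent partner, while those with one were close to other genes. In all, 49 of the 108 member regions (45.4%) lay near another protein-coding gene as well, and 17.9% of other genes' regions lay near 2 or more genes. Among the first such members by name were Mrpl2 (with Klc4), Mrpl10 (with Lrrc46), Mrpl12 (with Hgs) and Mrpl13 (with Mtbp).

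ETS letters were the most common motif in the promoters of these genes. Of 69 windows, 39 held CCGGAA (56.5%, 44 to 68.4), in comparison with 19.1% of 17492 promoters of protein-coding genes and 28.4% of the 9916 promoters of other genes with a start in a region. The 53 matches had their first base at a median of 17 bases upstream of the start (quartiles -55 and 6). At least 2 matches were found in 13 genes, and repeats were not counted in other promoters. AAGATGGC, the YY1 letters, was in 12 windows (17.4%, 9.32 to 28.4; all promoters 3.21%, other genes with an open start 4.48%). GCATGCG, the NRF1 letters, was in 8 (11.6%, 5.14 to 21.6, beside 4.5% and 6.77%). The longer form CGCATGCGC, which contains the shorter one, was in 7 of these windows. Its shares were 10.1% of members, 2.41% of all promoters and 3.93% of other open ones. The 8 genes with the shorter form were Mrpl9, Mrpl10, Mrpl17, Mrpl22, Mrpl32, Mrpl33, Mrpl39 and Mrps18b. For SP/KLF boxes the order was another: 42% of members, 34% of all promoters and 51.6% of other open ones. CCAAT boxes were equally common in all 3 sets (39.1%, 39.2% and 39.8%), and TATA letters were in 4 members (5.8%; 13.3% of all promoters and 6.32% of other open ones). A match says only that the letters are there.

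The YY1 letters lay in 2 places. In 8 of the 12 genes (Mrpl35, Mrpl37, Mrpl42, Mrpl49, Mrps7, Mrps18a, Mrps24 and Mrps27) they stood on the gene's own strand, downstream of the start, with a first base between 11 and 36. The letters contain ATG, as start codons do, and whether any of these matches overlaps a start codon was not tested. In the other 4 they stood on the opposite strand and upstream: at Mrpl32 at -242, at Mrps12 at -199 and at Mrps11 at -107, which is past the start of the divergent partner in all 3, and at Mrpl36 at -30. By cluster of the start region, the YY1 letters were in 6 of 13 windows of cluster 3, 4 of 15 of cluster 4 and 2 of 22 of cluster 8. The ETS letters were in 8, 6 and 14 of these. The SP/KLF letters were in 8, 7 and 6. Motifs were not counted by cluster in the promoters of other genes, so no link of motif and cluster can be read from these counts.

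Base composition of these promoters lay between that of all promoters and that of other open ones. The median GC content was 58.3% (42.3% to 78%), beside 56.3% for all promoters and 62% for other genes with a start in a region. The median number of CpG was 21 (7 to 39), beside 13 and 22. By cluster, the members' median GC content was 55.8% in the 22 genes of cluster 8 and 64.7% in the 15 of cluster 4, with medians of 17 and 26 CpG. The same split was not made for other genes. Across 66 members the width of the start region followed GC content with a Spearman rho of 0.469 and CpG number with 0.448, and across 9916 other genes with 0.242 and 0.259. These are descriptions across genes, which are not independent replicates. The part of base composition in the narrower width of member regions was not tested.

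**Figure D4:**
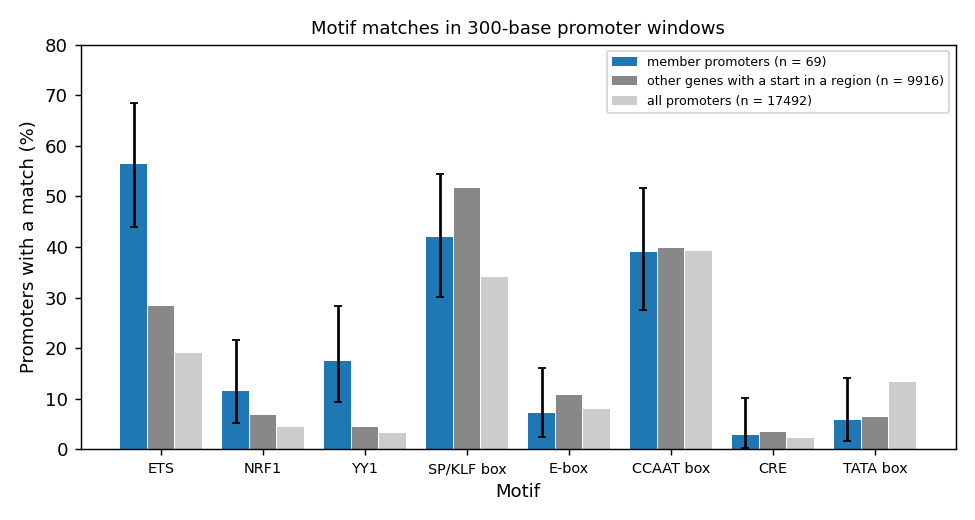
Share of promoter windows (%) with a match to each of 8 motifs on either strand, in 69 mitochondrial ribosomal protein genes (blue, with exact 95% intervals), 9916 other genes with a start in a region (dark grey) and all 17492 promoters (light grey). The blue bars of ETS (56.5%) and YY1 (17.4%) exceed both grey bars, and those of CCAAT do not.

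Related gene lists, drawn up from general knowledge, are set beside the shares of all other genes with a region, 36% for clusters 2, 3 or 4 and 25.5% for cluster 8. A list of mitoribosome proteins without an Mrpl or Mrps symbol had a cluster 8 region in 6 of 7 genes. These were Dap3, Ptcd3, Chchd1, Aurkaip1, Gadd45gip1 and Mterf4, while Nsun4 was in cluster 3. Mterf4 and its partner Nsun4 are assembly factors and not ribosomal proteins, and Nsun4 counts in the assembly list too. Mitochondrial aminoacyl-tRNA synthetases, which charge tRNAs for this ribosome, had a region of cluster 2, 3 or 4 in 14 of the 16 genes with a region (87.5%) and a cluster 8 region in none; Aars2 had no region. Assembly factors had 10 of 24 genes in each of these classes (41.7%), and translation factors such as Tufm and Gfm1 had 3 of 11 in each (27.3%). Cytosolic ribosomal protein genes had 49 of 80 in clusters 2, 3 or 4 (61.2%), 22 in cluster 8 (27.5%), 25 in cluster 6 and 19 in cluster 1 (23.8%). Their regions had a median width of 1397 bp, against 832.5 bp at the mitochondrial ribosomal genes. Regions of translation factors were narrower still, with a median of 736 bp. The medians were 979.5 bp for synthetases, 994 bp for assembly factors and 1037 bp for mitoribosome proteins with other names.

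Genes for mitochondrial transcription and import had 3 of 9 in clusters 2, 3 or 4 (33.3%) and 2 in cluster 8 (22.2%), near the shares of other genes. Of 10 upstream regulators 9 had a region, and Gabpb1, which encodes the partner subunit of Gabpa in GABP, had none. Nrf1 had cluster 8 and 9 regions of 1792 and 310 bp, Gabpa cluster 4 and 7 regions of 2312 and 220 bp, and Yy1 a cluster 1 region of 2537 bp. The lists hold between 7 and 81 genes, and the differences between them were not tested.

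**Figure D5:**
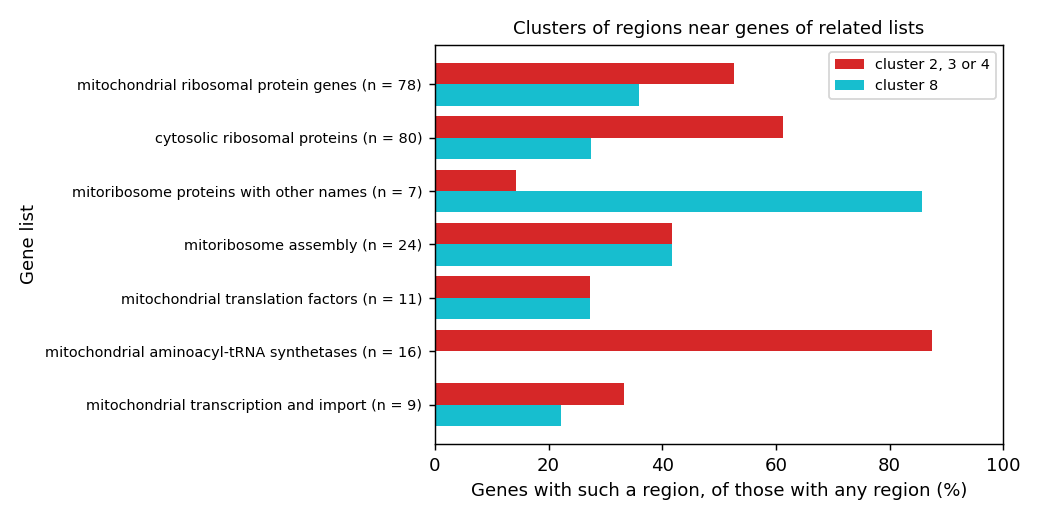
Share of genes (%) with a region of cluster 2, 3 or 4 (red) and of cluster 8 (cyan) within 2.5 kb of a limit, of the genes in each list with any region there (n in the labels). The red bar is longest for mitochondrial aminoacyl-tRNA synthetases (87.5%). The cyan bar is longest for mitoribosome proteins with other names (85.7%), a list that also holds the assembly factors Mterf4 and Nsun4. The 78 mitochondrial ribosomal protein genes have 52.6% and 35.9%.

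Regions close to the limit of 2.5 kb were of several clusters. Just inside it lay a cluster 3 region of Mrps16 at 2405 bp and a cluster 4 region of Mrps31 at 2402.5 bp. Just outside lay cluster 1 regions of Mrpl16 at 2513.5 bp and of Mrps15 at 2528.5 bp. The median distance from midpoint to nearer limit was 246 bp for members and 445 bp for other genes, and since the rule used this distance it is given as a description only.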

How the data were processed

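The submitters' processing notes name SAMtools 1.6, Picard, Bowtie2 2.3.3.1, cutadapt 1.18 and the build mm10. The file deposited by the authors has no other measured value than a cluster name per region. The steps of region calling, merging and clustering are not given in the sources used here. Sequencing depth is unknown, and no interval rests on it.

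Region starts, counted from 0 in the file, were counted from 1. Genes were protein-coding entries of a RefSeq table for GRCm38.p6, the mm10 assembly, without 13 genes of mitochondrial DNA; strand and starts came from the RefSeq promoter table. A gene's start counted as inside a region when any of its RefSeq starts was; for motifs, 1 promoter per gene was used, the nearest to the 5′ limit. Shares carry exact binomial 95% intervals, and the main medians of width and distance carry 95% bounds. No p-value was computed. Assignment of regions to genes was checked on simulated regions. Other windows, assignments and chromosome sets were tried. Members, lists and the joining of clusters 2, 3 and 4 were chosen with earlier results of these data known. Of the listed genes, 1 (Mtrfr) matched no entry. Genes named with values are those without a region, the first 3 per cluster (all where a cluster has at most 5), the 5 widest and 5 narrowest, those with 3 regions, the first 4 sharing a region with a neighbour, member pairs within the window and those nearest to the limit; others were named after their values were seen. Python 3.11.15 was used with matplotlib 3.10.9, SciPy 1.17.1, pandas 2.3.3 and numpy 2.4.6.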

Additional observations from a re-analysis of the deposited data

How the results depend on the processing

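Of 142 alternative values, 118 stayed within the 95% interval of the value reported and 130 stayed on the same side of the value for other genes. The share of members with a region was 82.1% with a window of 500 bp and 79.5% with regions credited only to the nearest gene. The share with a cluster 1 region was 4.69% at 500 bp, 28.2% at 5 kb and 4.55% among regions that contain a start. The last setting and the next were chosen after seeing the data. The median width was 684 bp (906 bp in other genes) among regions near no other gene. The median distance was 143 bp at 500 bp, 170 bp at 1 kb, 663 bp at 5 kb and 164 bp for the nearest region only; each window bounds the distance by construction. The 12 values that crossed the value for other genes were the median width at 5 kb (778 and 770 bp) and shares of clusters 2, 5, 6 and 9. The share with clusters 2, 3 or 4 ran from 41.3% to 55.1% and that of cluster 8 from 29.7% to 42.3%, above other genes in each setting. With motifs on the given strand only, ETS letters were in 33.3% of member promoters and 10.9% of all. No paired analysis was possible because the table holds no value per library, and leaving out a replicate could not be run either.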

Other observations

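Beyond 2.5 kb and up to 50 kb from their limits, mitochondrial ribosomal protein genes had a median of 6.5 regions, beside 7 for other genes with a region nearby. The number ran from 0 at Mrpl3 and Mrps30 to 14 at Mrpl10, Mrpl45 and Mrpl52. Of 535 such regions, 23.6% were of cluster 9, 23% of cluster 1, 16.3% of cluster 7 and 13.8% of cluster 8. Around other genes the shares were 25.6%, 20.1%, 17.9% and 9.74%. Cluster 6 held 7.1% around the members and 11.9% around other genes. Cluster 1, less frequent than elsewhere at the limits of these genes, was thus above its share around other genes at this distance, and cluster 7 was slightly below. Neighbouring genes share these regions, and no test was made.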
